A study of Mus musculus with 32 samples.

Results

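The S100 genes encode small calcium-binding proteins, and 8 of them, S100a1, S100a4, S100a6, S100a8, S100a9, S100a10, S100a11 and S100a13, were followed here in cortical microglia after a stab wound. They were chosen by gene symbol, which finds 8 of the 55385 gene IDs of the count table, and all 8 passed the filter on low counts. The microglia were EYFP+ cells sorted by fluorescence-activated cell sorting (FACS) from the wound or from the matching site of the opposite, non-injured hemisphere of the same kind of mouse. Every mouse was an adult C57BL/6 animal of 8 to 10 weeks, heterozygous for Cx3cr1CreER, and received tamoxifen at 180 mg/kg on 5 successive days before the wound, so the non-injured side carries the same allele and drug and is not tissue of an unwounded animal. Wound and non-injured sides were sampled at days 1, 4, 7 and 14 in females and in males, which gives 16 groups of 2 columns each. The series description calls the 2 columns of a group biological replicates, yet they differed by little more than counting noise, and whether they are technical repeats is not known. They were summed into 1 library, so that 8 pairs of a wound and a non-injured library, 1 for each day and sex, carry the comparisons. Expression from the Cx3cr1 locus, which drives the recombinase, is known in monocytes and border macrophages as well as in microglia.

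Most S100 proteins, though not all, sense calcium through EF-hand loops, act as dimers, and change the behaviour of partner proteins when calcium rises inside the cell. Some also leave the cell and act on receptors as danger signals. S100a8 and S100a9 form calprotectin, the abundant cytosolic complex of neutrophils and monocytes, and released calprotectin acts through Tlr4 and Ager. S100a4 binds non-muscle myosin and is associated with cell movement, S100a10 and S100a11 pair with annexins at membranes, S100a1 is best known from heart muscle and neurons, and S100a13 takes part in the export of proteins that lack a signal peptide.

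All 8 genes lie on mouse chromosome 3 in the GENCODE M21 annotation of GRCm38. From S100a1 (chr3:90511034-90514392, minus strand) to S100a9 (chr3:90692632-90695721, minus strand) 6 of them share a stretch of 184688 bases that also holds S100a13, S100a4, S100a6 and S100a8. The remaining pair, S100a11 (chr3:93520488-93526287, plus strand) and S100a10 (chr3:93555080-93564643, plus strand), lies 2824766 bases further on. S100a1 and S100a13 start 42 bases apart on opposite strands. RefSeq start sites were available for 7 of the 8 genes, all but S100a10.

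The 250 bases before the RefSeq start (GRCm38.p6) are shown for S100a8, S100a9 and S100a11, the members with the largest rises at the wound. Capitals mark matches to 4 short motifs searched in all 7 windows. These were the TATA box (TATAAA, gene strand only) and, on both strands, AP-1 (TGANTCA), C/EBP (TTNNGNAA) and PU.1 (GAGGAAG). Each sequence runs 5′ to 3′ on the gene's strand.
S100a8, chr3:90668821-90669070, plus strand: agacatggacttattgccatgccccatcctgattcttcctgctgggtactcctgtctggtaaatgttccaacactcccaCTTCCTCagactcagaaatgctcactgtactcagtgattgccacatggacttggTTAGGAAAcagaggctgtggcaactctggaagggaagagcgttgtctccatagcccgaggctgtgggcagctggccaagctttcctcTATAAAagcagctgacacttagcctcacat
S100a9, chr3:90695722-90695971, minus strand: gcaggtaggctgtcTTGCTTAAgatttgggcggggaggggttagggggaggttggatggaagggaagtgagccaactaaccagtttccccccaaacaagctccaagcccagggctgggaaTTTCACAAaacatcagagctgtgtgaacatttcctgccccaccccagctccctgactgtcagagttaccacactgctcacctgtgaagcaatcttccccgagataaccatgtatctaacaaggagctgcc
S100a11, chr3:93520246-93520495, plus strand: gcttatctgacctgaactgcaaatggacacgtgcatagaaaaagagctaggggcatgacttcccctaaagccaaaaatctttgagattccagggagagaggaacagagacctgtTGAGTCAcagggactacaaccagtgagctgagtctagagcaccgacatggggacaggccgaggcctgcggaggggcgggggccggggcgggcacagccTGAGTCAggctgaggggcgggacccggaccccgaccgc
The S100a8 window holds a TATA box that begins at -30, a C/EBP match at -117 and a PU.1 match on the opposite strand at -171, counted back from the start site. The S100a9 window has 2 C/EBP matches, at -236 and -130, both on the opposite strand. The S100a11 window has 2 AP-1 matches, at -136 and -38. Outside the 3 windows shown, the S100a4 window had a TATA box and no other window matched a motif. Among 32851 RefSeq promoters of this length, 7.59% hold the TATA box, 6.75% the AP-1 motif, 36.8% the C/EBP motif and 10.6% the PU.1 motif. The matches describe letters in these windows and no binding was measured.

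Summed libraries held 20864031 to 55378880 counts. Microglial markers were present in every library, at summed levels of 1.04e+04 to 4.29e+04 CPM at the wound and 1.14e+04 to 7.22e+04 CPM on the non-injured side (12 of 12 markers detected in each). The wound library had the lower sum in 7 of 8 pairs. On the mean over days 8 of the 12 markers fell, 1 rose and 3 did not pass, where 2277 of all 28597 genes fell. CPM is the usual depth-scaled count, here on TMM-corrected library totals. A few libraries stood apart. The day 4 male non-injured library had 25.7% of its counts on mitochondrial genes, against 0.697% to 7.55% in the other 15, and summed neuron markers of 8703 CPM. The day 14 female libraries had the fewest genes with a count, 14720 at the wound and 14772 on the non-injured side, against 18718 or more in the others. The day 7 male non-injured library had the most Anxa2 of its side, at 58.6 CPM. Results are therefore also given without the day 4 and day 7 male pairs, an alternative chosen after the values were seen.

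Averaged over the 4 days, 7 of the 8 S100 genes were higher at the wound than on the non-injured side at an adjusted p under 0.05 (edgeR quasi-likelihood test, Benjamini-Hochberg over all 28597 genes tested), and none was lower. Of all genes tested, 15.7% were called in this comparison, 7.76% as higher. These were 2219 higher and 2277 lower genes, and limma on log2(TPM + 1) called 1092 higher and 3279 lower. The members' median log2 effect was 2.09, against -0.32 for all genes. The largest effects were those of S100a8, S100a9 and S100a11, and S100a1 was the gene that did not pass. Without the day 4 and day 7 male pairs, only 1 female pair is left at each of these days. The S100a1 log2 effect over the days was then 1.60, against 0.78 in all pairs. In these bulk libraries, fewer cells of a type and less RNA per cell cannot be told apart.

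**Figure D1:**
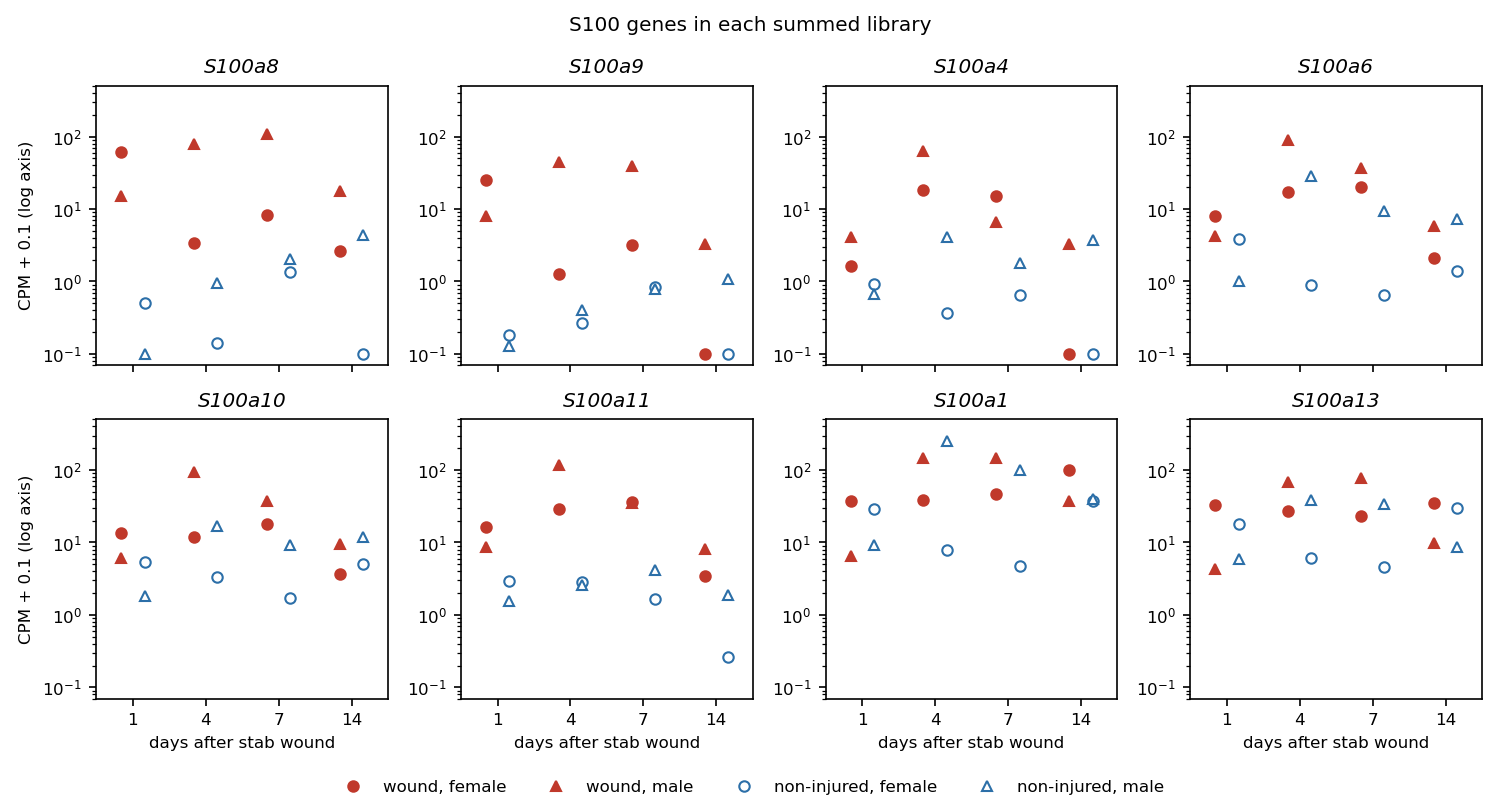
CPM + 0.1 (log axis) of the 8 S100 genes in each summed library, by days after the stab wound, with wound libraries filled and to the left, non-injured libraries open and to the right, females as circles and males as triangles (1 library per point). S100a8 and S100a11 lay higher at the wound in all 8 pairs, while S100a1 overlapped between the sides on every day.

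Levels of different genes can be compared in TPM, which divides by transcript length. At the wound the medians over 8 libraries ran from S100a8 at 120.3 TPM and S100a1 at 114.7 TPM through S100a11 at 78.1, S100a13 at 60.6, S100a9 at 40.5, S100a6 at 36.0 and S100a10 at 30.4 to S100a4 at 26.3 TPM. On the non-injured side the order was S100a1 at 96.6 TPM, S100a13 at 42.3, S100a10 at 14.3, S100a11 at 12.6, S100a6 at 10.3, S100a4 at 6.11, S100a8 at 2.62 and S100a9 at 0.871 TPM. S100a8 thus headed the order at the wound and stood next to last on the non-injured side. The spread between libraries was wide: S100a8 ranged from 8.53 to 319 TPM at the wound, and S100a1 from 32.2 to 260 TPM, so neighbours in these orders do not differ beyond their spread. The 8 genes together made up 339 to 1650 TPM in the wound libraries, median 440, and 80.6 to 632 TPM in the non-injured libraries, median 199. The sum was higher at the wound in 8 of 8 pairs.

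S100a8, the smaller calprotectin subunit, had the largest fitted effect on the mean over days, while S100a9 had the larger one at day 1. Both differences were smaller than the standard errors. At day 1 it stood at 62.0 CPM (female) and 14.8 CPM (male) at the wound, against 0.404 and 0 CPM on the non-injured side. At day 4 the wound libraries had 3.25 and 78.0 CPM, against 0.0410 and 0.853 CPM. At day 7 they had 8.21 and 109 CPM, against 1.25 and 1.96 CPM. At day 14 they had 2.51 and 17.6 CPM, against 0 and 4.32 CPM. The wound library was the higher in 8 of 8 pairs, and the sides did not overlap on days 1, 4 and 7. The male wound libraries were the higher of the sexes from day 4 on, and the female one at day 1. A count of 0 allows up to 0.0845 CPM in the day 1 male and 0.123 CPM in the day 14 female non-injured library (3 counts, for counting error only). Over the 4 days S100a8 averaged 36.9 ± 40.5 CPM at the wound and 1.10 ± 1.48 CPM on the non-injured side (SD, n = 8 each), with a fitted log2 effect of 5.28 (SE 0.48, adjusted p = 0.000143). Without the highest library of each side the means were 26.6 CPM at the wound and 0.644 CPM on the non-injured side.

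S100a9, the other calprotectin subunit, followed S100a8 at lower levels. Day 1 wound libraries had 24.7 CPM (female) and 7.97 CPM (male), against 0.0808 and 0.0282 CPM, which are 3 and 1 counts. Day 4 wound libraries had 1.18 and 45.1 CPM, against 0.164 and 0.310 CPM. Day 7 wound libraries had 3.13 and 38.8 CPM, against 0.729 and 0.683 CPM. At day 14 the female libraries, those with the fewest genes detected, had 0 CPM on both sides and the male ones 3.22 CPM at the wound, against 0.990 CPM. The wound library had more S100a9 in 7 of 8 pairs, the exception being the female day 14 pair at 0. Its log2 effect over the 4 days was 5.08 (SE 0.72, adjusted p = 0.00216). Without the day 4 and day 7 male pairs this was 3.70 (adjusted p = 0.0602). Without the day 14 male pair, only libraries at 0 are left at that day, and the mean cannot be tested. In the 7 wound libraries that held both, S100a8 was 1.99 to 6.15 times S100a9 in TPM, with a median of 3.21.

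Markers of other cells differed between the sides as well. On the mean over days, 6 of 12 neutrophil markers rose and 6 did not pass. Of 12 monocyte markers, 11 rose and 1 did not pass, where 7.76% of all genes were called as higher. The summed neutrophil markers had 57.8 to 658 CPM at the wound and 51.5 to 714 CPM on the non-injured side. Of this, Csf3r, the receptor for granulocyte colony-stimulating factor, gave 51.9 to 530 CPM at the wound and 50.5 to 714 CPM on the non-injured side. The other 11 summed to 5.93 to 181 CPM at the wound and 0.0822 to 9.39 CPM on the non-injured side, with the wound library the higher in 8 of 8 pairs. Mmp8 made up much of this sum, with 150 of 181 CPM in the day 7 male wound library and all 5.93 CPM in the day 14 female one. Csf3r and Mmp8 were both set aside after their values were seen. Without them, the other 10 summed to 0 to 72.0 CPM at the wound and 0.0411 to 8.74 CPM on the non-injured side. The wound sum was the higher in 7 of 8 pairs. It was 33.1 CPM (female) and 7.97 CPM (male) at day 1, and 10.4 and 72.0 CPM at day 4. At day 7 it was 27.4 and 30.5 CPM, and at day 14 it was 0 and 23.0 CPM. S100a8 in the same libraries had 62.0 and 14.8, 3.25 and 78.0, 8.21 and 109, and 2.51 and 17.6 CPM. Ly6g, the surface antigen that defines mouse neutrophils, was near 0 throughout, at 0 to 0.53 CPM at the wound and 0 to 0.225 CPM on the non-injured side. Cxcr2, the neutrophil chemokine receptor, had 26.0 CPM in the day 1 female wound library (62.0 CPM of S100a8), 9.84 CPM in the day 7 male one (109 CPM) and 3.28 CPM in the day 4 male one (78.0 CPM).

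The summed monocyte markers had 213 to 2170 CPM at the wound and 20.05 to 212.7 CPM on the non-injured side, and the wound library had more in 8 of 8 pairs. Fn1 gave 1849 CPM of the highest sum, that of the day 4 female wound library, which held 3.25 CPM of S100a8. Fn1 was set aside after its values were seen. Without it the sums were 89.2 to 815 CPM at the wound and 15.8 to 134 CPM on the non-injured side, again higher in 8 of 8 pairs. At the wound they were 136 CPM (female) and 89.2 CPM (male) at day 1, and 322 and 282 CPM at day 4. At day 7 they were 556 and 815 CPM, and at day 14 they were 125.5 and 180 CPM. The day 7 male wound library, with the highest of these sums, held 109 CPM of S100a8. Hp, which was kept in the sums, gave 285 of its 815 CPM, against 13.5 CPM in the day 7 female wound library. The order of these 2 libraries thus leans on 1 marker. Border macrophage markers (8) summed to 91.6 to 3460 CPM at the wound and 21 to 683 CPM on the non-injured side, higher in 7 of 8 pairs, and 3 rose, 1 fell and 4 did not pass. T and NK cell markers (9) summed to 5.02 to 31.8 CPM at the wound and 1.76 to 25 CPM on the non-injured side, higher in 7 of 8 pairs. Of these 9, 2 rose. Beside these calls, 2219 of all 28597 genes were called as higher and 2277 as lower. B cell markers (6) exceeded the non-injured level at the wound in 1 of 8 pairs, at 47 to 402 CPM against 64.8 to 607 CPM on the non-injured side. The part of any of these cells in the S100 results was not tested.

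**Figure D2:**
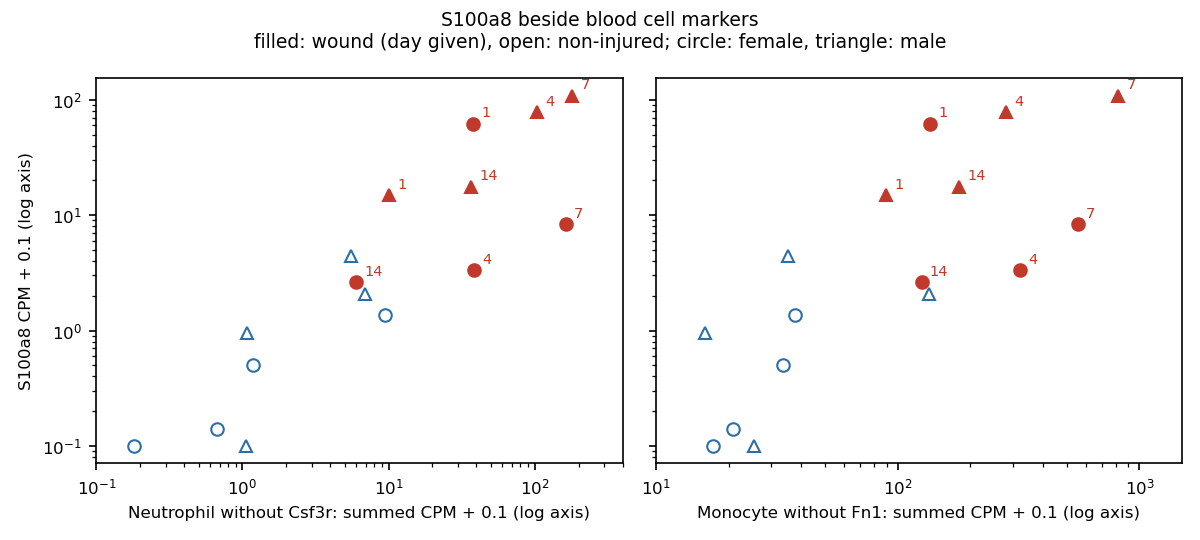
S100a8 CPM + 0.1 against the summed CPM + 0.1 of 11 neutrophil markers (left, Csf3r set aside, Mmp8 included) and of 11 monocyte markers (right, Fn1 set aside), both on log axes, 1 point per library, with wound libraries filled and marked by day, and non-injured libraries open. Wound libraries sit at 5.93 to 181 CPM of neutrophil markers, non-injured ones at 0.0822 to 9.39 CPM.

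Of 18 genes of neutrophil granules and of the same alarm response, 11 rose and 7 did not pass, with a median log2 effect of 4.25 (-0.32 for all genes, of which 7.76% were called as higher). Of the 18, 8 are also among the 12 neutrophil markers, Mmp8 included. Among them Mmp8, a granule collagenase, had a log2 effect of 5.71 (adjusted p = 8.8e-05), Slpi, a secreted protease inhibitor, 5.66 (adjusted p = 0.000884), Wfdc17 4.29 (adjusted p = 0.000886) and Il1b, a cytokine of myeloid cells, 3.30 (adjusted p = 0.000223), all by edgeR.

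S100a4 stood highest at day 4. Wound libraries then had 18.4 CPM (female) and 63.4 CPM (male), against 0.266 and 3.99 CPM on the non-injured side. At day 1 the wound libraries had 1.53 and 4.04 CPM, against 0.835 and 0.564 CPM. At day 7 they had 14.8 and 6.63 CPM, against 0.554 and 1.71 CPM. At day 14 the female pair was at 0 CPM on both sides and the male pair at 3.22 CPM at the wound, against 3.69 CPM. Both wound libraries were above both non-injured ones on days 1, 4 and 7, and the wound library led in 6 of 8 pairs. Its log2 effect over the 4 days was 2.37 (SE 0.48, adjusted p = 0.0129), and 4.65 at day 4 alone (SE 0.82, adjusted p = 0.0354). The mean did not pass once 1 of 3 pairs was left out, the female (adjusted p = 0.0675) or male (0.0951) pair of day 1 or the female one of day 7 (0.0522). Without the day 14 male pair it cannot be tested, for the same reason as S100a9. S100a4 shares 2115 bases on the same strand with the predicted gene Gm42674, so reads there could be assigned to either.

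S100a6, or calcyclin, the next member after S100a4 on the chromosome, with S100a5 between them, had a smaller effect. Day 1 wound libraries had 7.86 CPM (female) and 4.16 CPM (male), against 3.798 and 0.902 CPM. Day 4 wound libraries had 17.3 and 89.6 CPM, against 0.799 and 28.5 CPM, so the male non-injured library lay above the female wound library. Day 7 wound libraries had 20.4 and 36.8 CPM, against 0.554 and 9.21 CPM. Day 14 wound libraries had 2.002 and 5.71 CPM, against 1.31 and 7.11 CPM. S100a6 was higher at the wound in 7 of 8 pairs, with the male day 14 pair the exception. The log2 effect over the 4 days was 1.81 (SE 0.43, adjusted p = 0.0203). It did not pass without the day 1 female (adjusted p = 0.103), day 1 male (0.105) or day 7 female pair (0.0690).

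S100a11, the calcium-dependent partner of annexin A1, was the second member that was higher in 8 of 8 pairs. Day 1 wound libraries had 16.1 CPM (female) and 8.54 CPM (male), against 2.80 and 1.47 CPM. Day 4 wound libraries had 28.9 and 119 CPM, against 2.79 and 2.48 CPM. Day 7 wound libraries had 35.9 and 34.5 CPM, against 1.57 and 4.10 CPM. Day 14 wound libraries had 3.38 and 7.99 CPM, against 0.164 and 1.80 CPM. The sides did not overlap on any day, and 7 of 8 wound libraries lay above the highest non-injured one. S100a11 averaged 31.8 ± 37.4 CPM at the wound and 2.15 ± 1.17 CPM on the non-injured side (SD, n = 8 each), a 9.90-fold fitted difference (log2 3.31, SE 0.35, adjusted p = 0.000569). Of all genes tested, 5.11% were higher at the wound in all 8 pairs.

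S100a10, the light chain of the annexin A2 complex, had a smaller effect and lay higher at the wound in both sexes up to day 7. Day 1 wound libraries had 13.4 CPM (female) and 5.98 CPM (male), against 5.20 and 1.72 CPM. Day 4 wound libraries had 12 and 94.3 CPM, against 3.28 and 17.0 CPM. Day 7 wound libraries had 17.6 and 36.8 CPM, against 1.63 and 9.03 CPM. Day 14 wound libraries had 3.53 and 9.46 CPM, against 4.89 and 11.7 CPM, the lower of the sides in both sexes. Its log2 effect over the 4 days was 1.49 (SE 0.26, adjusted p = 0.00484). The day 4 male wound library held the highest level of S100a4, S100a6, S100a10 and S100a11. Without it, the wound means were 6.94, 13.5, 14.1 and 19.3 CPM for these genes in that order, and the non-injured means without their own highest library 1.09, 3.38, 5.34 and 1.87 CPM.

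The annexins, which these S100 proteins bind, rose as well: of 12 listed, 10 were tested, 7 rose and 3 did not pass. Their median log2 effect was 1.75, against -0.32 for all genes, of which 7.76% were called as higher. Anxa2, the partner of S100a10, averaged 232 ± 126 CPM at the wound and 16.1 ± 18.8 CPM on the non-injured side (SD, n = 8 each), with no overlap between the sides (log2 4.22, SE 0.36, adjusted p = 0.000232). Without the highest library of each side these means were 204 and 10.1 CPM. Anxa1, the partner of S100a11, averaged 55.5 ± 61.4 CPM and 4.41 ± 6.78 CPM (log2 3.71, SE 0.39, adjusted p = 0.000598). Without the highest library of each side, Anxa1 averaged 35.7 CPM at the wound and 2.06 CPM on the non-injured side. Anxa5 had a log2 effect of 2.80 and Anxa4 of 2.19. Ahnak, a large scaffold protein bound by the S100a10 and annexin A2 complex, rose by a log2 of 1.65 (adjusted p = 0.0129). Of 32 intracellular partners, Anxa1, Anxa2 and Ahnak among them, 8 rose, 4 fell and 20 did not pass, with a median of 0.16. Of all 28597 genes, 2219 were called as higher and 2277 as lower. Iqgap1, a scaffold of the cell cortex, rose (log2 3.29), and Syt1, a calcium sensor of synaptic vesicles, fell (log2 -3.84). Summed neuron markers were lower at the wound in 8 of 8 pairs, at 22.5 to 398 CPM against 103 to 8700 CPM on the non-injured side, and their part in the Syt1 value was not tested.

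**Figure D3:**
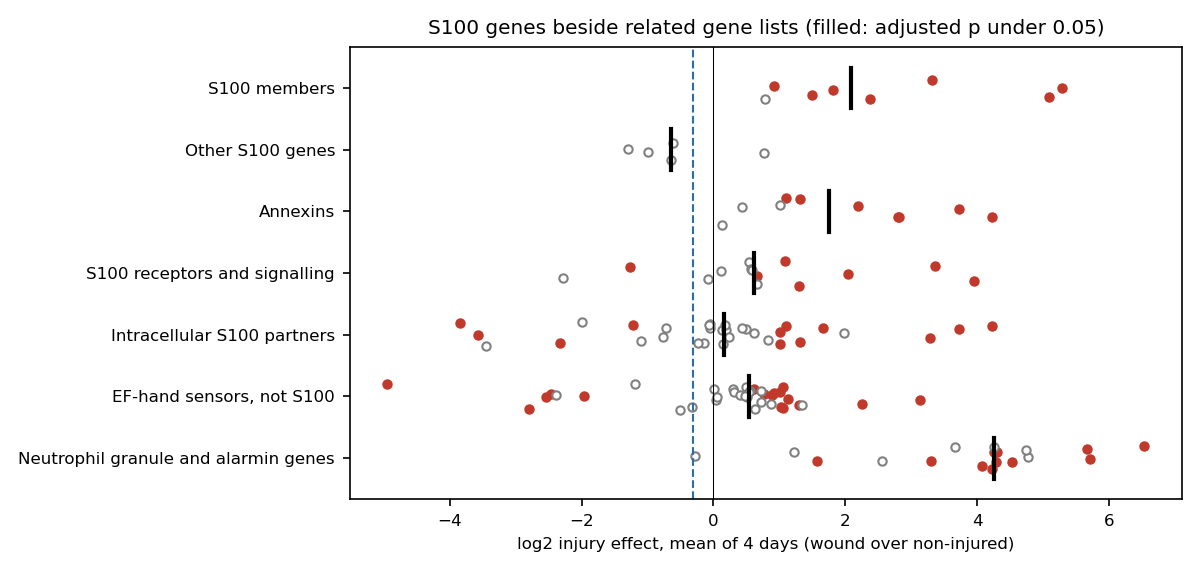
Fitted log2 injury effect, averaged over the 4 days (wound over non-injured), for each tested gene of 7 lists (vertical scatter within a list only separates the points), with filled points at an adjusted p under 0.05, a black bar at the list's median and a dashed line at the median of all genes, -0.32. The S100 members have a median of 2.09, the 5 other S100 genes tested one of -0.64.

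S100a13 and S100a1, neighbours that face away from each other, moved least. S100a13 had 32.4 CPM (female) and 4.23 CPM (male) at the day 1 wound, against 18.0 and 5.86 CPM. At day 4 the wound libraries had 26.8 and 67.3 CPM, against 5.96 and 38.0 CPM. At day 7 they had 22.8 and 77.6 CPM, against 4.43 and 34.0 CPM. At day 14 they had 34.9 and 9.74 CPM, against 30.2 and 8.61 CPM. The wound library was the higher in 7 of 8 pairs, yet the sides overlapped on every day. The log2 effect over the 4 days was 0.91 (SE 0.27, adjusted p = 0.0477), just under the threshold, and it did not pass in 7 of the 8 fits that left out 1 pair. Of all 17 alternatives, those fits included, the call was lost in 11.

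S100a1 had 37.0 CPM (female) and 6.42 CPM (male) at the day 1 wound, against 28.7 and 9.24 CPM. At day 4 the wound libraries had 39.0 and 147 CPM, against 7.87 and 253 CPM. At day 7 they had 47.1 and 145 CPM, against 4.61 and 100 CPM. At day 14 they had 100 and 36.8 CPM, against 36.8 and 39.7 CPM. It was higher at the wound in all 4 female pairs and in 1 of 4 male pairs. The log2 effect over the 4 days was 0.78 (SE 0.43, adjusted p = 0.273). At day 4 the means, 92.8 CPM at the wound and 130 CPM on the non-injured side, and the fitted log2 of 0.69 (adjusted p = 0.863) pointed in opposite directions. The day 4 male non-injured library was the highest of all for S100a1. It was also the highest for summed neuron (8703 CPM), astrocyte (6059 CPM) and oligodendrocyte lineage markers (4671 CPM). The part of these cells in the S100a1 value was not tested. Without the day 4 and day 7 male pairs, which leaves only a female pair at each of these days, the S100a1 log2 effect was 1.60.

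**Figure D4:**
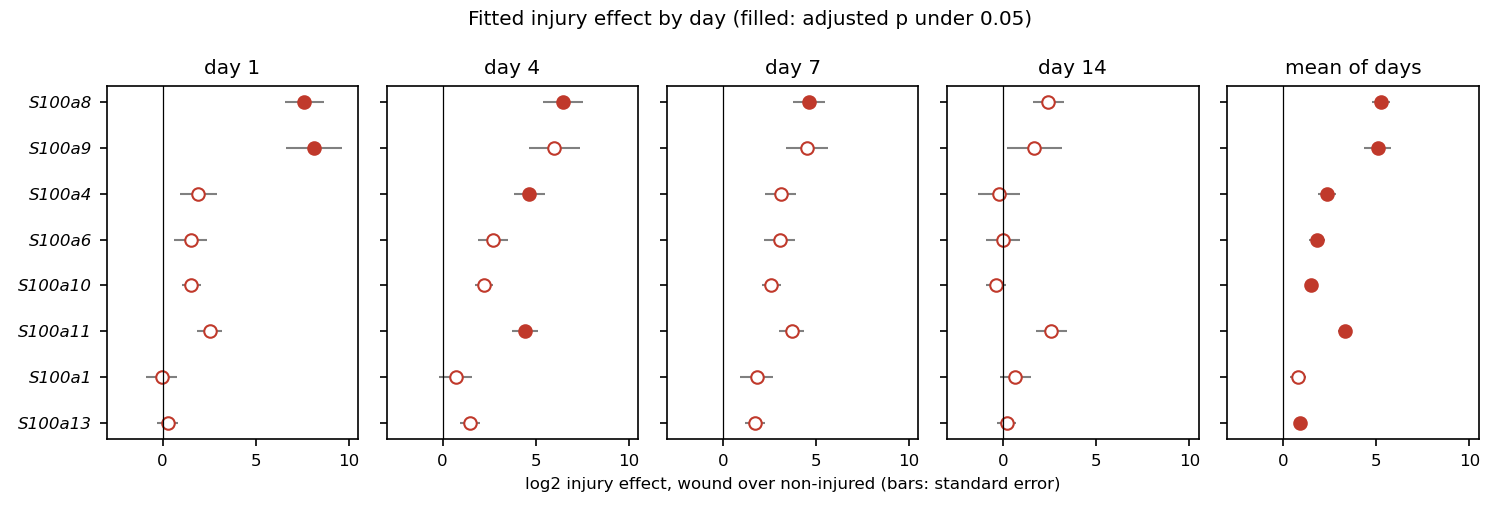
Fitted log2 injury effect (wound over non-injured, bars for the standard error) of the 8 S100 genes at each day and averaged over the 4 days, with filled points at an adjusted p under 0.05. S100a8 is called on days 1, 4 and 7, at 7.60, 6.47 and 4.62, and no member is called on day 14.

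Taken day by day, with 2 pairs a day, fewer members passed. At day 1, 2 of 8 rose, S100a8 and S100a9, where 0.472% of all genes were called as higher. Their log2 effects were 7.60 (SE 1.05, adjusted p = 0.0147) and 8.13 (SE 1.51, adjusted p = 0.0466). At day 4, 3 of 8 rose, S100a8, S100a4 and S100a11, against 1.52% of all genes. S100a11 then had a log2 effect of 4.41 (SE 0.68, adjusted p = 0.0224) and S100a8 one of 6.47 (SE 1.06, adjusted p = 0.0194). At day 7, S100a8 alone passed (log2 4.62, SE 0.84, adjusted p = 0.0476), against 0.318% of all genes. At day 14, 0 of 8 passed by edgeR, where 0.0455% of all genes were called as higher. At that day 2 members, S100a8 and S100a11, had an unadjusted p under 0.05, as did 4723 of the 28597 genes. DESeq2 called 2 members there, and 2115 of the 28597 genes. None of the 3 day 4 calls and not the day 7 call held without the day 4 and day 7 male pairs, which leave 1 pair at each of these days. Of 17 alternatives, the day 7 call of S100a8 was lost in 11, the day 4 calls of S100a4, S100a11 and S100a8 in 9, 7 and 5, and the day 1 calls of S100a9 and S100a8 in 6 and 3.

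By plain order, both wound libraries lay above both non-injured ones for 6 members at day 1, 4 at day 4, 6 at day 7 and 1 at day 14, where 12.3%, 15%, 18% and 7.15% of all genes did so. The one at day 14 was S100a11. The effect of injury did not pass as different between the days for any member (0 of 8 by edgeR, 0% of all genes, 0 by DESeq2). At an unadjusted p under 0.05 were 3 members, and 1819 of the 28597 genes. The lowest p was that of S100a10 (0.0119, adjusted p = 0.675), whose log2 effect was 2.60 at day 7 and -0.37 at day 14. Along the wound side alone, 0 of 8 members passed across days by edgeR (0.104% of all genes did), and 0 by DESeq2. At an unadjusted p under 0.05 were 4, S100a4, S100a6, S100a9 and S100a11, and 1429 of the 22040 genes. Along the non-injured side 0 of 8 passed (0% of all genes), with 0 at an unadjusted p under 0.05 (352 of the 24622 genes) and 0 by DESeq2.

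The injury effect was compared between the sexes over the 4 days. By edgeR 0 of 8 members passed (0% of all genes). At an unadjusted p under 0.05 were 2094 of the 28597 genes, among them 3 members. These were S100a1, higher in females by a log2 difference of 2.11 (SE 0.45, adjusted p = 0.241), S100a13, by 0.97 (SE 0.43, adjusted p = 0.665), and S100a9, with a female minus male difference of -3.76 (SE 1.42, adjusted p = 0.601). DESeq2 called 1, S100a1, where 152 of all 28597 genes were called.

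Of 14 genes for receptors of released S100 proteins and their signalling, 6 rose, 1 fell and 7 did not pass, with a median log2 effect of 0.62, against -0.32 for all genes, of which 7.76% were called as higher. Cd36, a scavenger receptor that binds S100a8 and S100a9 complexes in human cells, averaged 154 ± 94.2 CPM at the wound and 16.2 ± 14.0 CPM on the non-injured side (SD, n = 8 each; log2 3.35, adjusted p = 0.0015). Ptger4, a prostaglandin E receptor, had a log2 effect of 3.95, Cd14, the co-receptor of Tlr4, one of 2.03, and Cd68 one of 1.29. Tlr4 itself had 55.7 ± 28.5 CPM and 66.1 ± 39.6 CPM (log2 -0.09, adjusted p = 0.975). Bsg, which binds S100a9 in human cells, had 791 ± 271 CPM and 775 ± 419 CPM (log2 0.11, adjusted p = 0.894). Ager, the receptor for advanced glycation end products, was near the floor on both sides, at 0.573 ± 1.03 CPM and 0.834 ± 0.475 CPM (adjusted p = 0.174).

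Of 10 other S100 genes listed, 5 were tested and 0 passed by edgeR (0 at an unadjusted p under 0.05), with a median log2 effect of -0.64. Of all 28597 genes, 8187 had an unadjusted p under 0.05. The 7 fused-type relatives of the skin barrier, such as Flg, gave 6 tested genes, of which 0 passed (0 at an unadjusted p under 0.05), with a median of -1.18. S100b, the astrocyte and oligodendrocyte member, had a median of 5.01 CPM at the wound and 9.53 CPM on the non-injured side (log2 -0.998, SE 0.53, adjusted p = 0.256). S100a16, which lies between S100a13 and S100a4 on the chromosome, had a median of 9.88 CPM at the wound and 12.8 CPM on the non-injured side (log2 -0.62, adjusted p = 0.549). Both were highest in the day 4 male non-injured library, at 212 CPM for S100b and 196 CPM for S100a16. Of 37 EF-hand calcium sensors outside the family, 12 rose, 5 fell and 20 did not pass, with a median of 0.54. Among all 28597 genes, 2219 were called as higher and 2277 as lower. Ehd1, an endosomal recycling protein, rose (log2 2.26), as did Pdcd6 (1.30), while the neuronal sensors Hpca (-2.80) and Ncs1 (-1.96) fell.

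For each member, the genes with the most similar set of 8 pair log2 ratios were sought among the 8727 genes that averaged 10 CPM or more. Likeness was the mean absolute difference of the ratios, each computed after adding 1 CPM. The nearest to S100a8 were Cxcl2, a neutrophil-attracting chemokine (1.07), Slpi (1.11) and Clec4e, a C-type lectin receptor (1.12), and the nearest to S100a9 were Slpi (0.834), S100a8 (0.892) and Dab2 (1.12). S100a4 had Oasl1 (0.563), S100a6 (0.581) and Pclaf (0.627). S100a6 had Ifi27l2a (0.487), Rpl27-ps3 (0.490) and Fignl1 (0.508), and S100a10 had Rpl27-ps3 (0.333), Sdf2l1 (0.403) and Ost4 (0.412). S100a11 was nearest to the ferritin light chain gene Ftl1 (0.339), its pseudogene Ftl1-ps1 (0.409) and the lysosomal protease gene Ctsb (0.547). S100a1 lay nearest to Phyh (0.324), Cox4i1 (0.375) and Gpx4 (0.377), and S100a13 to Pet100 (0.228), H3f3a (0.248) and Acadl (0.257). Values for a pseudogene and its parent can share reads. Among the members themselves, the closest pairs were S100a4 with S100a6 (0.581) and S100a10 with S100a6 (0.584), and the furthest was S100a1 with S100a8 (3).

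On a log2 scale, wound over non-injured side, the authors' deposited table has for S100a11 a fold change of 2.55 at day 1, 4.67 at day 4, 3.25 at day 7 and 2.47 at day 14, with adjusted p of 0.000773, 3.93e-12, 8.85e-06 and 0.00189. For S100a8 the authors' deposited table has 7.53, 6.39, 4.88 and 2.17 at the same days, with adjusted p of 7.93e-07, 2.63e-05, 0.0023 and 0.249. For S100a1 at day 4 the authors' deposited table has -0.72 (adjusted p = 0.663), of the opposite sign to the paired fit. The submitters' notes name DESeq2, so these p-values are not those of the edgeR test used above. At day 14 DESeq2 as run here called 2115 of 28597 genes, and edgeR 17.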

How the data were processed

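Polyadenylated RNA of sorted microglia was made into cDNA with SMART-Seq v4 and into libraries with Nextera XT, which keep no strand, per the labels' protocols. Per the submitters' processing notes, Salmon 1.0.0 and DESeq2 1.26.0 were used. The genome build is not given in the sources used here. Deposited by the authors were expected counts (estimated reads per gene, not normalized) and TPM for 55385 IDs. The authors' deposited table for each day has, by gene, a log2 fold change and its standard error (a score), an adjusted p-value, and as signal the average of normalized counts. All 32 count columns were used.

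Columns of a group were compared by a chi-square with 1 degree of freedom per gene. Its median was 0.475 to 0.639, against 0.455 for counting noise, and 31.6 to 113 between sexes, so they were summed and rounded. The labels do not tie libraries to animals, so p-values measure only the spread between these libraries, which may be technical. The test was edgeR 4.0.16 under R 4.3.3 (quasi-likelihood, TMM, filterByExpr at a minimum count of 10; 28597 genes) in a model of 8 pair means and 4 day effects, with 4 residual and 5.32 prior degrees of freedom. The sex difference, and each side across days (day and sex as terms; 22040 genes at the wound, 24622 on the non-injured side), were fitted likewise. Alternatives used DESeq2 1.42.0 and limma 3.58.1 on log2(TPM + 1) and log2(TPM + 0.1). The steps were tested on simulated data. Named genes were the 8 members, the other S100 genes, Anxa1, Anxa2, Ahnak, Ager, Tlr4, Cd36 and Bsg, up to 4 called genes per further list with the largest effect at a mean of 10 CPM or more, and the 3 genes nearest to each member. The members and lists were chosen with earlier results of these data known. Markers named singly (Csf3r, Ly6g, Cxcr2, Fn1, Hp) were chosen after their values were seen. The fused-type genes were listed apart from the other S100 genes after their values were seen too.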

Additional observations from a re-analysis of the deposited data

Results flagged for a closer look

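In 7 cases the highest library of a side stood further from the other 7 than a Dixon test at 95% allows. For independent groups of normal values, chance flags about 1 in 20, and 16 were looked at. These groups pool 4 days and both sexes and share libraries, so that rate need not hold here. The day 4 male wound library was highest in 4 of the 7. It had 63.36 CPM of S100a4 (next 18.36 CPM), 89.62 CPM of S100a6 (next 36.8 CPM), 94.29 CPM of S100a10 (next 36.76 CPM) and 118.9 CPM of S100a11 (next 35.93 CPM). The day 4 male non-injured library, with 25.7% mitochondrial counts, stood out for S100a6 at 28.5 CPM (next 9.214 CPM) and for S100a1 at 252.8 CPM (next 100.3 CPM). The day 14 male non-injured library had 4.322 CPM of S100a8 (next 1.957 CPM).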

How the results depend on the processing

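Over 17 alternatives, 657 of 678 member values kept their direction, and the 21 that turned were not called as reported. For the mean over days, S100a8 and S100a11 passed under all 17 alternatives. The counts reported were 2, 3, 1 and 0 members at days 1, 4, 7 and 14, and 7 for the mean. DESeq2 gave 4, 6, 7 and 2 at the 4 days and 1 for the sex difference. Of all 28597 genes it called 2463, 1876, 2136 and 2115 at these days and 152 for the sex difference. The older edgeR dispersion estimate gave 5, 6 and 2 at days 4, 7 and 14, 1 for the difference between days and 1 between sexes. Of all 28597 genes that estimate called 1344, 1320 and 1009 at these days, 343 for the difference between days and 87 between sexes. Median-ratio factors and limma at pseudocounts 1 and 0.1 gave 0 at day 7, where 91, 179 and 248 of 28597 genes passed. Without a filter on low counts the counts were 1 at day 1, 0 at day 7 and 3 along the wound side. Of all genes, 101 and 16 of 47869 passed at those days and 434 of 43716 along the wound side. Without the day 4 and day 7 male pairs, days 4 and 7 gave 0. Leaving out 1 pair in turn gave 0 to 3 at day 1, 0 to 3 at day 4, 0 to 5 at day 7, 4 to 7 for the mean and 0 to 1 along the wound side; the lone pair left at its day is assumed to vary like the others. Between the fits without 1 pair, the number of all genes passing varied widely as well. A loss or gain of members there is thus not particular to the S100 genes. Median-ratio factors moved the median of all genes from -0.318 to -0.443.

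The replicate numbers do not pair the columns: deviations of equal numbers on both sides correlated between -0.0347 and 0.0587. A replicate block on 32 columns takes counting noise for spread. With it, 5, 7, 8 and 2 members passed at the 4 days, where 8197, 7672, 11213 and 8501 of 22980 genes did. It gave 6 members for the difference between days (9167 genes), 3 between sexes (5196 genes) and 5 along the wound side (6667 of 17927 genes). With no replicate block (16 libraries, unpaired), 0 passed at days 1, 4 and 7, and 4 in the mean. Of all 28597 genes, 12, 19 and 0 passed at these days and 2097 in the mean.

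The values that turned were these. S100a6 at day 14 had 0.129 with DESeq2, 0.0823 unfiltered, 0.0381 unpaired, 0.13 with the older estimate and -0.326 to 0.616 without 1 pair. S100a1 at day 1 had 0.0167 with median-ratio factors, 0.0346 unfiltered, 0.255 unpaired, 0.0063 without the day 4 and day 7 male pairs and -0.536 to 0.363 without 1 pair. S100a1 at day 4 had -0.311 unpaired and -0.662 to 2.32 without 1 pair, and at day 14 -0.117 to 1.46 without 1 pair. S100a13 at day 1 had -0.0948 and -0.102 with limma and -0.48 to 0.845 without 1 pair, and at day 14 -0.00363 and -0.00313 with limma. S100a9 and S100a4 had 0 counts in both day 14 female libraries, which had the fewest genes detected.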
